A study of Mus musculus with 2 samples.

Results

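The genes described here are 9 transcription factors and cofactors with known roles in setting fast or slow muscle fiber identity: Six4, Eya1, Maf, Tbx15, Sox6, Prox1, Vgll2, Nfatc1 and Nfatc2. They were named for these known roles among the 27998 genes of the count tables, with earlier results of these data known, and all 9 had transcripts in both libraries. The data are single-nucleus RNA-Seq (snRNA-Seq) libraries of gastrocnemius-plantaris (GP) muscle, a mostly fast hindlimb muscle of the mouse. The control (Ctrl) library came from Net39 fl/fl mice without Cre. The conditional knockout (cKO) library came from HSA-CreERT2; Net39 fl/fl mice, in which tamoxifen activates a Cre recombinase driven by the human skeletal actin promoter, so that Net39 (listed under the symbol Plpp7) is removed in muscle fibers and not in satellite cells. Both groups are labeled as B6C3F1, the strain of the zygotes in which the floxed allele was made, and the founders were then bred to C57BL/6N and the line to HSA-CreERT2 mice. Both were 5 months old and had received tamoxifen 3 months earlier, the controls included. Each library pooled 3 muscles, although the sample names speak of a single mouse, so there was 1 library per group and no replicate. No test between groups was therefore possible, and every interval given here is an exact 95% interval of counting error and leaves out the spread between animals.

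Adult fibers are named after their main myosin heavy chain, which is encoded by Myh7 in slow type I fibers and by Myh2, Myh1 and Myh4 in fast type IIa, IIx and IIb fibers. SIX4 and its homeodomain relatives work with EYA cofactors to switch on fast-fiber genes, the large MAF factors activate Myh4, TBX15 is a T-box factor of fast glycolytic fibers, and SOX6 represses slow-fiber genes in fast fibers. PROX1 is a homeodomain factor of slow fibers, VGLL2 is a cofactor of TEAD factors, and the NFAT factors enter the nucleus after dephosphorylation by calcineurin, which carries slow motor nerve activity to the genes.

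After filtering, 3526 Ctrl nuclei and 3595 cKO nuclei were analyzed, of 3863 and 3994 barcodes. The medians were 2040.5 unique molecular identifiers (UMIs, counts of single captured transcripts) per nucleus in Ctrl and 1611 in cKO. Levels are given as CPM, the UMIs of a gene relative to all UMIs of the same nuclei on the usual scale. The targeted gene Plpp7 was at 51.9 CPM in Ctrl myonuclei, from 408 UMIs, and at 41.8 CPM in cKO myonuclei, from 282 UMIs. In the Myh4 class, set by the main myosin as described next, it was at 54.9 CPM (48.8 to 61.6) and 61.9 CPM (53.2 to 71.6), and so not lower in cKO. The libraries used 3′ tags and the deletion removes the first exon, so this level is not used here to check the deletion. The paper reports lower Net39 mRNA in cKO GP muscle by bulk RNA-Seq and loss of the protein in quadriceps by Western blot. Why the level in Myh4-class nuclei was not lower was not tested. Of 11 clusters, 7 were taken as myonuclei, with 2987 nuclei in Ctrl and 3295 in cKO. All 9 skeletal muscle fiber markers (among them Ttn, Neb and Ckm) had UMIs in the myonuclei, with a summed level of 77695 CPM (Ctrl) and 72386 CPM (cKO). The same markers summed to 36557 and 36745 CPM in the clusters outside the fibers, so nuclei outside the fibers also held fiber RNA. The clusters did not hold both libraries equally. The type I-like cluster, named from 9 of 9 type I markers, had 193 Ctrl and 949 cKO nuclei, and the unnamed cluster led by Plekhh1 and Tmem100 (cluster 6) had 188 Ctrl and 23 cKO nuclei. The libraries shared 4 barcodes.

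Each myonucleus was put in a class by its main myosin, which had to make up 60% or more of the UMIs of Myh7, Myh2, Myh1 and Myh4, with 3 such UMIs as the minimum. The Myh7 class had 19 nuclei in Ctrl and 275 in cKO, the Myh2 class 166 and 325, the Myh1 class 302 and 381, and the Myh4 class 1911 and 1427. A further 131 Ctrl and 208 cKO nuclei had no myosin at 60% and are called hybrid, and 458 and 679 had too few myosin UMIs. The limit is not a natural gap: the top myosin held from 50% to under 70% in 302 of 2529 Ctrl and 387 of 2616 cKO nuclei with enough UMIs. Levels in the Ctrl Myh7 class rest on 19 nuclei and 40470 UMIs and enter no count of ratios, since 1 UMI there is worth 24.7 CPM. CPM was not corrected for gene length, so no level is compared between genes.

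**Figure D1:**
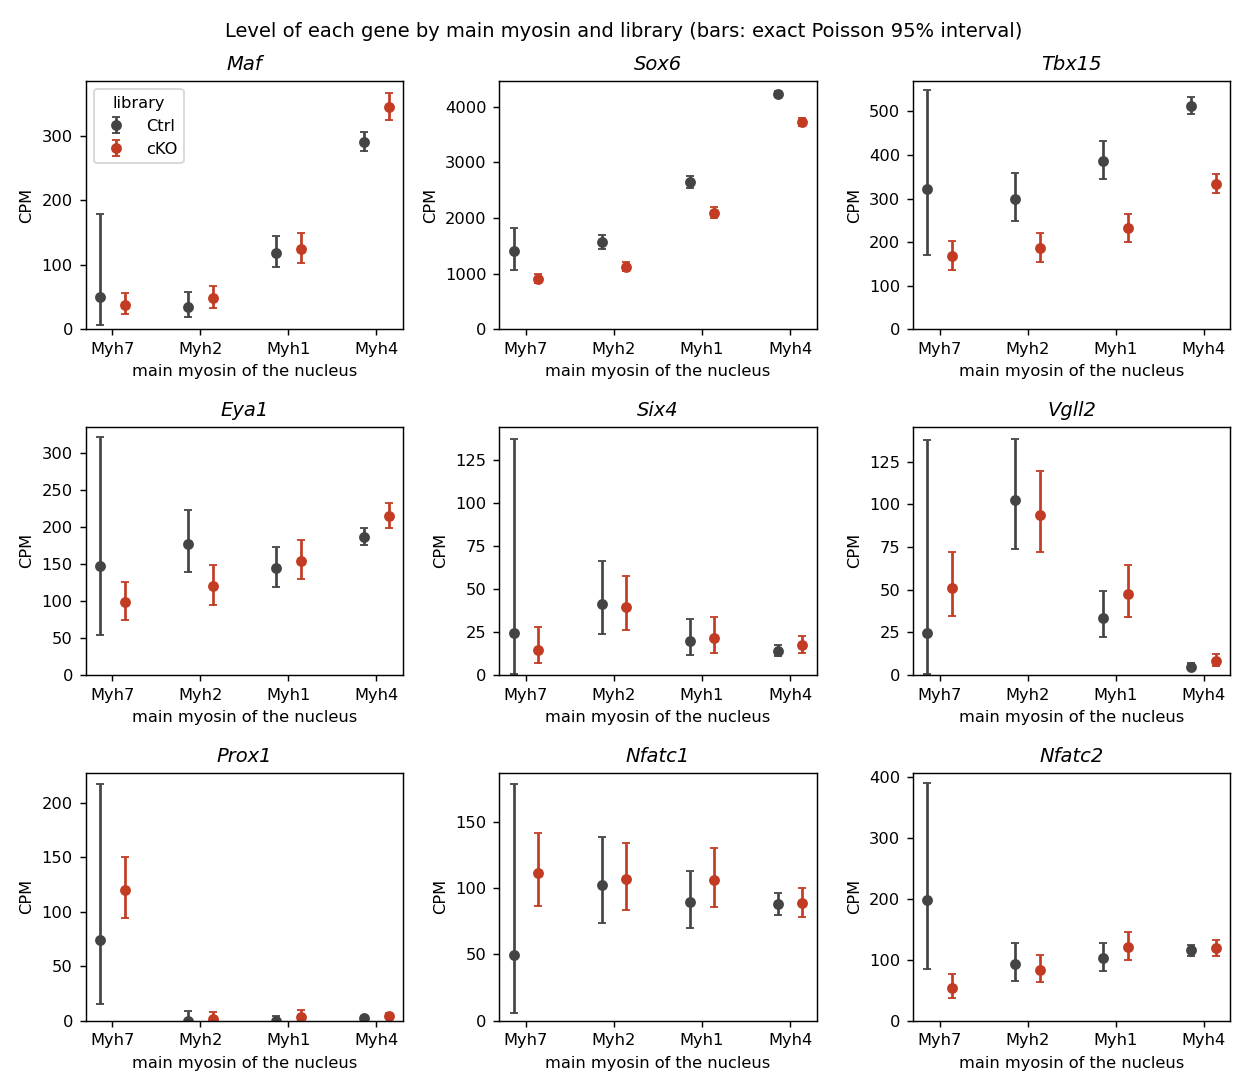
Level of each of the 9 genes in CPM by main myosin of the nucleus (Myh7, Myh2, Myh1, Myh4), with Ctrl in gray and cKO in red. Points are levels of summed UMIs and bars are exact Poisson 95% intervals. Maf and Sox6 climb from the Myh2 to the Myh4 class in both libraries, Vgll2 is highest in the Myh2 class, and Prox1 is high in the Myh7 class of cKO at 119.65 CPM.

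Among the fast-fiber factors, Maf, Sox6 and Tbx15 were ordered along the 3 fast myosin classes, with the highest level in the Myh4 class of either library. Maf was at 292 CPM in the Ctrl Myh4 class (95% interval 277 to 306), at 118 CPM in the Myh1 class (95.9 to 145) and at 34.2 CPM in the Myh2 class (18.7 to 57.3). The same order stood in cKO, at 346 CPM in the Myh4 class, 124 CPM in the Myh1 class, 48.2 CPM in the Myh2 class and 37.7 CPM in the Myh7 class. The intervals of neighboring classes did not overlap from Myh2 to Myh4 in either library, while those of the Myh2 and Myh7 classes of cKO did (33.2 to 67.7 and 23.9 to 56.6 CPM). The 19 nuclei of the Ctrl Myh7 class held 2 UMIs of Maf (49.4 CPM, 5.98 to 179), which does not place that class in the order. Maf, which encodes the large MAF factor c-Maf, was thus 8.54-fold higher in the Myh4 than in the Myh2 class of Ctrl and 7.17-fold higher in cKO. The size of this fold depended on the processing. Over the alternatives of the closing section the log2 ratio of the Myh2 over the Myh4 class ran from -3.56 to -1.50 in Ctrl. In cKO it ran from -3.16 to -2.10.

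Sox6 gave the most UMIs of the 9 genes, 29582 in Ctrl and 17069 in cKO myonuclei, and so had the narrowest intervals. In Ctrl it was at 4236 CPM in the Myh4 class, 2649 CPM in the Myh1 class, 1561 CPM in the Myh2 class and 1408 CPM in the Myh7 class. In cKO the levels were 3729 CPM, 2095 CPM, 1119.7 CPM and 909.7 CPM in the same order. No intervals of neighboring classes overlapped except those of the Myh2 and Myh7 classes of Ctrl (1443 to 1687 and 1067 to 1825 CPM). The log2 ratio of the Myh2 over the Myh4 class was -1.44 for Ctrl (-1.56 to -1.33) and -1.74 for cKO (-1.84 to -1.63), and that of the Myh1 over the Myh4 class was -0.68 and -0.83.

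Tbx15 showed a shallower slope in the same direction. It was at 513 CPM in the Ctrl Myh4 class, 387 CPM in the Myh1 class and 300.0 CPM in the Myh2 class, and at 334 CPM, 232 CPM and 186 CPM in these classes of cKO, with 167 CPM in the Myh7 class. The intervals of the Myh2 and Myh1 classes overlapped in both libraries, although the ratio between them in Ctrl had an interval short of 0 (log2 -0.37, -0.68 to -0.06), and those of the Myh7 and Myh2 classes of cKO overlapped too. The Ctrl Myh7 class was at 321 CPM from 13 UMIs (171 to 549), a range that takes in all 3 fast classes. The Myh4 class stood above the Myh2 class by 1.71-fold in Ctrl and 1.80-fold in cKO.

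Eya1, a cofactor of SIX4 and its relatives, had no such order in Ctrl. It was at 187 CPM in the Ctrl Myh4 class, 178 CPM in the Myh2 class and 145 CPM in the Myh1 class, and the log2 ratio of the Myh2 over the Myh4 class was -0.07 (-0.43 to 0.27). In cKO it followed the order of Sox6, at 216 CPM in the Myh4 class, 155 CPM in the Myh1 class, 119.9 CPM in the Myh2 class and 98.3 CPM in the Myh7 class. The log2 ratio of the Myh2 over the Myh4 class was -0.85 in cKO (-1.20 to -0.51), and the intervals of the Myh7 and Myh2 classes and of the Myh2 and Myh1 classes overlapped there. Its Ctrl ratio moved to -0.85 when the class was set from nuclei thinned to 500 UMIs and to 0.30 with a stricter class limit, so the order of Eya1 in Ctrl is not settled at this depth.

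Six4 encodes the partner of EYA cofactors in the set and was the only fast-fiber factor here that was highest in the Myh2 class of both libraries. It was at 41.5 CPM in the Ctrl Myh2 class (17 UMIs), 19.96 CPM in the Myh1 class (16 UMIs) and 14.2 CPM in the Myh4 class (76 UMIs). In cKO it was at 39.5 CPM, 21.5 CPM and 17.3 CPM in these classes and at 14.8 CPM in the Myh7 class, from 9 UMIs. The log2 ratio of the Myh2 over the Myh4 class was 1.55 for Ctrl (0.70 to 2.32) and 1.19 for cKO (0.46 to 1.89). The intervals of the Myh1 class overlapped those of both neighbors in either library.

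Vgll2 had the largest fold between fast classes among the 9 genes. In Ctrl it was at 102 CPM in the Myh2 class (42 UMIs), 33.7 CPM in the Myh1 class (27 UMIs) and 4.84 CPM in the Myh4 class (26 UMIs). In cKO it was at 93.5 CPM in the Myh2 class, 47.5 CPM in the Myh1 class, 50.8 CPM in the Myh7 class and 8.16 CPM in the Myh4 class. The Myh2 class was 21.2-fold above the Myh4 class in Ctrl and 11.5-fold above it in cKO, and no interval of the Myh2 class overlapped one of the Myh1 or Myh4 class of its library. The Myh7 and Myh1 classes of cKO did not differ beyond their intervals (34.5 to 72.1 and 34.2 to 64.2 CPM), and the Myh7 class lay below the Myh2 class (log2 ratio -0.88, -1.55 to -0.24). In cKO the TEAD cofactor was thus highest in the oxidative fast class, not in the slow class. The Ctrl Myh7 class held 1 UMI of Vgll2 (24.7 CPM, 0.63 to 138), which does not place it below the Ctrl Myh2 class. With high doublet scores kept, the log2 ratio of the Myh2 over the Myh4 class of cKO was 2.81 in place of 3.52, and with classes set from nuclei thinned to 500 UMIs it was 2.77.

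Prox1 was highest in the slow class, with 73 of its 123 cKO UMIs in the 275 nuclei of the Myh7 class. Its level there was 119.65 CPM (93.8 to 150), against 12 UMIs in the Myh4 class (4.08 CPM), 3 in the Myh1 class (3.39 CPM) and 1 in the Myh2 class (1.46 CPM). The Ctrl Myh7 class had 3 UMIs in 19 nuclei (74.1 CPM, 15.3 to 217; log2 ratio of cKO over Ctrl 0.69, -0.91 to 3.00), the Ctrl Myh4 class 15 UMIs (2.79 CPM), and the Ctrl Myh1 and Myh2 classes had none, which allows up to 3.74 and 7.32 CPM. The Myh7 class of cKO was thus 29.3-fold above its Myh4 class (log2 ratio 4.87, 3.98 to 5.89), and the 3 fast classes could not be told apart from each other. Of the remaining cKO UMIs 28 were in nuclei with too few myosin UMIs for a class, 26 of them in the type I-like cluster, and 6 were in hybrid nuclei.

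Nfatc1, whose product carries calcineurin signals to the nucleus, differed little between classes. It was between 87.7 and 102 CPM in the Myh4, Myh1 and Myh2 classes of Ctrl and between 88.8 and 111 CPM in all 4 classes of cKO, and the log2 ratios to the Myh4 class, from 0.03 to 0.33, all had intervals that included 0. With the stricter class limit (80% of at least 5 myosin UMIs) the ratio of the Myh2 over the Myh4 class turned to -0.66 in Ctrl and -0.37 in cKO. Nfatc2 was at 115 CPM in the Ctrl Myh4 class, 104 CPM in the Myh1 class and 92.7 CPM in the Myh2 class, with overlapping intervals. In cKO it was at 119 CPM in the Myh4 class, 121 CPM in the Myh1 class, 83.3 CPM in the Myh2 class and 54.1 CPM in the Myh7 class, while the 19 nuclei of the Ctrl Myh7 class held 8 UMIs (198 CPM, 85.3 to 390). The Myh7 class thus had the lowest level of Nfatc2 in cKO and the highest in Ctrl, with a log2 ratio of cKO over Ctrl of -1.87 (-3.01 to -0.54) that rests on those 8 UMIs. Within cKO the Myh7 class lay below the Myh4 class by 2.20-fold (log2 ratio -1.14, -1.70 to -0.62), while Nfatc1 in the same nuclei had a log2 ratio of 0.33 (-0.08 to 0.72).

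**Figure D2:**
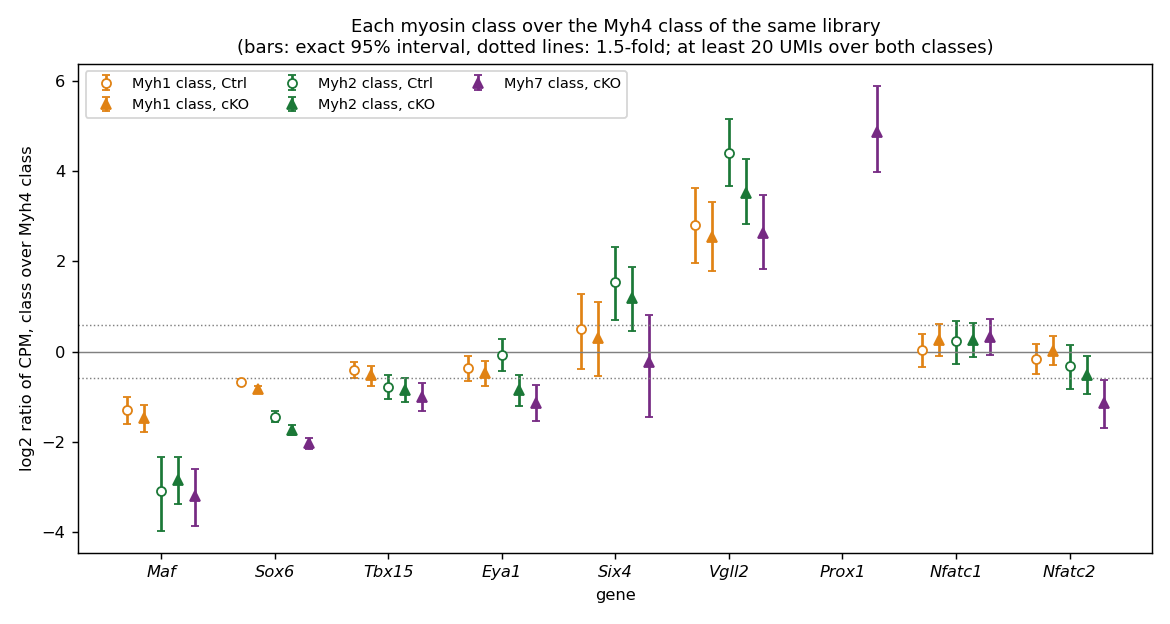
Log2 ratio of CPM of the Myh1, Myh2 and Myh7 classes over the Myh4 class of the same library, for the genes with at least 20 UMIs over both classes, with Ctrl as open circles and cKO as triangles. Bars are exact 95% intervals and dotted lines mark 1.5-fold. Maf, Sox6 and Tbx15 lie below 0 in every class, Vgll2 lies above 0 in every class, and Prox1 is drawn for the Myh7 class of cKO alone, at 4.87.

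A ratio was counted as past 1.5-fold when it had at least 20 UMIs over both sides. For the Myh2 over the Myh4 class of Ctrl, 2 of the 8 members with enough UMIs were higher (Six4 and Vgll2), where 22.9% of all genes with enough UMIs were, and 3 were lower (Maf, Sox6 and Tbx15), where 28.7% of all genes were. In cKO 2 were higher, against 17.4% of all genes, and 4 were lower with Eya1 added, against 25.4%. For the Myh1 over the Myh4 class, 1 of 8 was higher (Vgll2) and 2 were lower (Maf and Sox6) in each library. The shares of all genes were 15.0% higher and 20.9% lower in Ctrl, and 12.2% and 20.2% in cKO. For the Myh7 over the Myh4 class of cKO all 9 had enough UMIs, and 2 were higher (Prox1 and Vgll2) against 18.9% of all genes, and 5 were lower (Maf, Sox6, Tbx15, Eya1 and Nfatc2) against 25.1%. Many genes therefore passed this fold between classes, and the classes themselves were cut by myosin levels.

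The promoters of Sox6, Vgll2 and Prox1 are shown because these genes stand for the 3 orders found, highest in the Myh4, the Myh2 and the Myh7 class. The sequences are from RefSeq (GRCm38.p6), 250 bases before to 50 bases after the most 5′ start site listed, and were given for 5 of the 9 genes (Six4 and Nfatc2 besides). Capitals mark each match to GGAAA on either strand, the core that NFAT factors bind, which also holds the GGAA core of ETS factors. Sox6 lies on chromosome 7 (GRCm38, chr7:115470872-116038796, minus strand), and the window is chr7:116038695-116038994. Vgll2 lies on chromosome 10 (chr10:52022502-52028471, plus strand), with the window chr10:52022252-52022551. Prox1 lies on chromosome 1 (chr1:190118035-190170714, minus strand), with the window chr1:190170778-190171077.
Sox6: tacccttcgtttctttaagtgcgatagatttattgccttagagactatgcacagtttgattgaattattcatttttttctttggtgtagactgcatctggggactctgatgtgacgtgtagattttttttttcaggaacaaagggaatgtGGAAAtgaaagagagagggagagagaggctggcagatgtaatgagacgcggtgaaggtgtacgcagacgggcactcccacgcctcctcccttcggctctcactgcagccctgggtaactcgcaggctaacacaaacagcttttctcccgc
Vgll2: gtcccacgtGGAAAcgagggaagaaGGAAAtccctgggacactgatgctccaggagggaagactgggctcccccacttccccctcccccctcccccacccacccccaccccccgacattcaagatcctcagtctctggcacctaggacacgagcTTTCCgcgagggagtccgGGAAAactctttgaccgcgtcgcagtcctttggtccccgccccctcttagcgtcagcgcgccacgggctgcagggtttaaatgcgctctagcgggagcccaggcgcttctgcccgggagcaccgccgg
Prox1: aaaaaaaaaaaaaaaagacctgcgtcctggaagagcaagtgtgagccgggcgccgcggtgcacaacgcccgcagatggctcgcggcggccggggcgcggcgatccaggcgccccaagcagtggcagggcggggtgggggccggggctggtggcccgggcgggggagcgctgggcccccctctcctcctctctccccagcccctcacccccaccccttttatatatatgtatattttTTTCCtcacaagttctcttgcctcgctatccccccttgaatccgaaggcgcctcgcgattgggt

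The Vgll2 window held 4 matches to GGAAA, and those of Sox6 and Prox1 held 1 each, while 61.3% of the 32851 promoters of the table held at least 1. The E-box CANNTG, bound by myogenic factors, was found 2 times in the Sox6 and Prox1 windows and 1 time in that of Vgll2, where 72.3% of all promoters held it. No match to the MEF3 motif TCAGGTT of SIX4 and its relatives, the SOX core ACAAT, the T-box core GGTGTGA or the MCAT motif CATTCCT of TEAD factors was found on either strand in any of the 5 windows. These letters were in 4.07%, 31.0%, 3.98% and 5.36% of all promoters. A match in such a window is a run of letters and not a binding site.

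The comparison of cKO with Ctrl asked whether these regulators differed after loss of Net39, and whether a difference stood within a myosin class or came with the different mixture of classes. Over all myonuclei, Prox1 was 6.51-fold higher in cKO (2.80 CPM for Ctrl and 18.2 CPM for cKO, log2 ratio 2.70, 2.04 to 3.43), and Vgll2 was 2.36-fold higher (15.5 and 36.6 CPM, log2 ratio 1.24, 0.92 to 1.56). Tbx15 was 1.77-fold lower (474 and 268 CPM, log2 ratio -0.82, -0.91 to -0.74), and Sox6 was 1.49-fold lower (3765 and 2528 CPM, log2 ratio -0.57, -0.60 to -0.55). Maf had a log2 ratio of -0.30, Eya1 of -0.15, Six4 of 0.22, Nfatc1 of 0.10 and Nfatc2 of -0.06, and the intervals of the last 3 included 0. The median log2 ratio of all genes with enough UMIs was -0.08. Of the 9 genes, 2 were past 1.5-fold higher, where 9.25% of all genes were, and 1 was past it lower, where 13.4% were.

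Tbx15 was lower in cKO within each fast class. It was at 334 CPM in cKO against 513 CPM in Ctrl in the Myh4 class (log2 ratio -0.62, -0.73 to -0.51), at 232 against 387 CPM in the Myh1 class (-0.74, -1.001 to -0.48) and at 186 against 300.0 CPM in the Myh2 class (-0.69, -1.06 to -0.32). It had a log2 ratio of -0.48 in hybrid nuclei and of -1.01 in nuclei without a class. None of the intervals of these 5 ratios reached 0, and the levels of the same class did not overlap between the libraries. With both libraries set to the mean of their mixtures over the 6 classes, hybrid nuclei and nuclei without a class included, the ratio over all myonuclei was -0.68, and without the type I-like cluster it was -0.62. Markers of another cell type were lower in the same nuclei of cKO: the 10 markers of fibro-adipogenic progenitors (FAPs), connective tissue cells, summed to 70.6 CPM in the Ctrl Myh4 class (10 of 10 seen) and 29.3 CPM in that of cKO (9 of 10), against 4214 CPM in Ctrl nuclei outside the fibers. Tbx15 itself was at 352 CPM in FAP-like nuclei of Ctrl, below its level in the Ctrl Myh4 class. In the Myh4 class of Ctrl and cKO, smooth muscle and pericyte markers summed to 304 and 350 CPM and satellite cell markers to 54.0 and 58.5 CPM. The lists of other cells outside the fibers were lower in cKO. The part of FAP RNA in the Tbx15 ratio was not tested. With classes set from thinned nuclei the ratio was -0.53 in the Myh4, -0.47 in the Myh1 and -0.42 in the Myh2 class, all short of 1.5-fold. Without the type I-like cluster it was -0.58, -0.53 and -0.62, of which only that of the Myh2 class was past 1.5-fold.

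Sox6, the repressor of slow-fiber genes, was also lower in cKO within each fast class, by less in the main setting. The log2 ratios were -0.18 in the Myh4 class (-0.22 to -0.15), -0.34 in the Myh1 class (-0.43 to -0.25), -0.48 in the Myh2 class (-0.63 to -0.33), -0.71 in hybrid nuclei and -0.94 in nuclei without a class. Over the alternatives of the closing section the ratio of Sox6 in the Myh2 class ran from -0.81, past 1.5-fold, to -0.26. That of Tbx15 in this class ran from -0.72 to -0.42. Without the type I-like cluster, which held 36 of 302 Ctrl and 108 of 381 cKO nuclei of the Myh1 class, the ratios were -0.13 in the Myh4, -0.11 in the Myh1 and -0.26 in the Myh2 class and -0.28 in hybrid nuclei. The levels of the Myh1 class then overlapped between the libraries (2800 CPM, 2676 to 2928, for Ctrl and 2591 CPM, 2460 to 2727, for cKO). Over all myonuclei the ratio of Sox6 was -0.32 with the mixture of classes held equal and -0.25 without the type I-like cluster, against -0.57 as measured. Malat1, a nuclear RNA, took 26.6% of the UMIs of Ctrl and 31.3% of those of cKO myonuclei. With Malat1 and mitochondrial genes left out of the total, the ratio over all myonuclei was -0.48 for Sox6 and -0.73 for Tbx15.

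Maf and Eya1 were lower over all myonuclei of cKO and higher within its Myh4 class. Maf was at 346 CPM in the Myh4 class of cKO against 292 CPM in Ctrl (log2 ratio 0.25, 0.13 to 0.36), and Eya1 at 216 against 187 CPM (0.21, 0.06 to 0.35). In the Myh1 class the log2 ratios were 0.07 for Maf and 0.10 for Eya1, both with intervals across 0. Over the alternatives of the closing section that of Maf ran from -0.62, past 1.5-fold lower, to 0.31, and that of Eya1 from 0.01 to 0.33. In the Myh2 class Maf had a ratio of 0.50 (-0.44 to 1.51) and Eya1 of -0.57 (-1.04 to -0.10), and the latter was 0.67 with classes set from thinned nuclei, where the Myh2 class had 57 Ctrl and 107 cKO nuclei. In hybrid nuclei both were lower in cKO, Maf at 103 against 180 CPM (log2 ratio -0.80, -1.30 to -0.31) and Eya1 at 118 against 184 CPM (-0.64, -1.12 to -0.17). In nuclei without a class the ratios were -1.10 for Maf (-1.48 to -0.73) and -0.69 for Eya1 (-1.05 to -0.33). With the mixture of classes held equal the ratios over all myonuclei were 0.08 for Maf and -0.03 for Eya1, against -0.30 and -0.15 as measured. Without the type I-like cluster they were 0.10 and 0.11, and the ratio of Eya1 in the Myh2 class was -0.19.

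Prox1 and Vgll2 also differed less with the mixture of classes held equal. In that case the log2 ratio over all myonuclei was 1.14 for Prox1 and 0.60 for Vgll2, against 2.70 and 1.24 as measured. Without the type I-like cluster it was 1.09 for Prox1 and 1.11 for Vgll2, so that of Vgll2 moved little. The 1.14 of Prox1 takes in the Ctrl Myh7 class, whose level of 74.1 CPM (15.3 to 217) rests on 3 UMIs in 19 nuclei. No interval is given for that 1.14, so it does not fix how much of the Prox1 difference came with the mixture. Within the Myh2 class Vgll2 was at 93.5 CPM in cKO and 102 CPM in Ctrl (log2 ratio -0.13, -0.72 to 0.47), and within the Myh1 class at 47.5 and 33.7 CPM (0.49, -0.24 to 1.25). Within the Myh4 class Vgll2 was at 8.16 and 4.84 CPM (0.75, -0.11 to 1.61) and Prox1 at 4.08 and 2.79 CPM (0.55, -0.68 to 1.74). The intervals of these ratios all included 0. In nuclei without a class those of both genes lay above 0, with a ratio of 3.44 for Prox1 (1.45 to 6.55, from 2 and 28 UMIs) and of 1.82 for Vgll2 (0.86 to 2.91, from 11 and 50 UMIs). With classes set from thinned nuclei, and so with fewer UMIs, the ratio of Vgll2 was 2.61 in both the Myh1 and the Myh4 class. In the Myh4 class set without thinning (1911 Ctrl and 1427 cKO nuclei) the 9 type I markers summed to 48.0 CPM for Ctrl and 262 CPM for cKO. All 9 were seen in both, and their part in the low levels of Prox1 and Vgll2 was not tested. Cluster 0, which has Myh4 among its 10 leading genes, held no UMI of Prox1 in 1521 Ctrl nuclei, which allows up to 0.77 CPM, and 11 in 1184 cKO nuclei (5.09 CPM, 2.54 to 9.12).

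Six4, Nfatc1 and Nfatc2 had ratios with intervals across 0 within the Myh2, Myh1 and Myh4 classes. Their log2 ratios were -0.07, 0.11 and 0.29 for Six4, 0.06, 0.24 and 0.02 for Nfatc1, and -0.15, 0.22 and 0.04 for Nfatc2 in these classes. The interval of Nfatc1 in the Myh4 class was -0.21 to 0.24 and that of Nfatc2 was -0.15 to 0.24, so a difference of 1.5-fold in that class lay outside both. For Six4 in the Myh2 class, from 27 and 17 UMIs, the interval of -0.9995 to 0.90 left room for larger differences. Over the alternatives of the closing section Six4 ran from -0.13 to 1.13 in the Myh2, -0.53 to 1.16 in the Myh1 and 0.27 to 0.91 in the Myh4 class. Nfatc2 ran from -0.91 to 0.08 in the Myh2 class. Ratios of Nfatc1 in these classes, and of Nfatc2 in the Myh1 and Myh4 classes, stayed short of 1.5-fold.

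**Figure D3:**
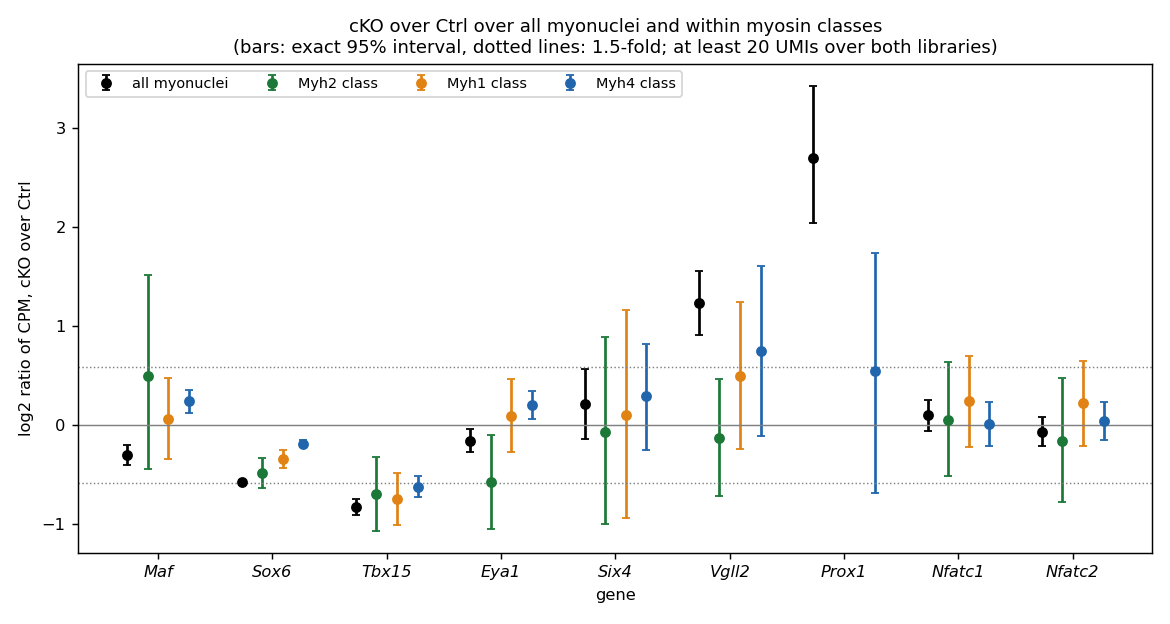
Log2 ratio of CPM in cKO over Ctrl for each gene, over all myonuclei (black) and within the Myh2, Myh1 and Myh4 classes (green, orange and blue), where at least 20 UMIs were counted over both libraries. Bars are exact 95% intervals and dotted lines mark 1.5-fold. Tbx15 and Sox6 lie below 0 in all 4, while Maf lies at -0.30 over all myonuclei and at 0.25 in the Myh4 class.

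In counts, 0 of 8 members with enough UMIs were past 1.5-fold higher and 1 was past it lower (Tbx15) in the Myh2 class, where 10.4% and 19.0% of all genes were. In the Myh1 class the counts were 0 and 1 (Tbx15), with 10.6% and 15.4% of all genes. In the Myh4 class 1 of 9 was higher (Vgll2) and 1 lower (Tbx15), with 8.62% and 12.5% of all genes. The median log2 ratio of all genes was -0.14 in the Myh2 class, -0.09 in the Myh1 class and -0.04 in the Myh4 class.

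The share of myonuclei with at least 1 UMI was compared after each nucleus was thinned to 500 UMIs. Sox6 was seen in 79.1% of Ctrl and 65.3% of cKO myonuclei (77.6 to 80.6% and 63.6 to 66.9%), and Tbx15 in 18.9% and 13.1% (17.6 to 20.4% and 11.9 to 14.2%). Maf was seen in 10.9% and 9.01%, Eya1 in 8.37% and 7.25%, Nfatc1 in 3.98% and 4.86% and Nfatc2 in 5.26% and 4.98%. Prox1 was seen in 0.167% and 0.971% of myonuclei, Vgll2 in 0.636% and 1.46% and Six4 in 0.803% and 1.12%. The intervals of Sox6, Tbx15, Prox1 and Vgll2 did not overlap between libraries, and those of the other genes did. With nuclei thinned to 1000 UMIs those of Maf did not overlap either, at 20.1% (18.6 to 21.6%) for Ctrl and 16.1% (14.8 to 17.5%) for cKO. That depth left out 44 Ctrl and 449 cKO myonuclei as too shallow, so the nuclei compared were not selected equally. Without thinning the shares were 97.6% and 88.4% for Sox6 and 0.569% and 3.03% for Prox1. In FAP-like nuclei of Ctrl, thinned to the same depth from a median of 1310 UMIs against 2141 in the myonuclei, Sox6 was seen in 28.2%, Tbx15 in 16.0%, Maf in 5.02% and Prox1 in 0.94%. A share of nuclei with a UMI is therefore not read here as a share of expressing nuclei, and that of Prox1 in Ctrl myonuclei was below its share in FAP-like nuclei. In the Myh7 class of cKO, Prox1 was seen in 16 of 275 thinned nuclei (5.82%, 3.36 to 9.28%).

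Within cKO the type I-like cluster also took in nuclei of fast classes, 76 of the Myh4, 108 of the Myh1 and 92 of the Myh2 class, and 313 of the nuclei without a class. Cluster membership was set by all genes, so the values that follow are a description. In Myh4-class nuclei of that cluster Maf had a log2 ratio of -1.59 to the other Myh4-class nuclei of cKO (-2.19 to -1.05, 28 and 988 UMIs), Sox6 of -1.30 (-1.45 to -1.15), Tbx15 of -0.87 (-1.34 to -0.43) and Eya1 of -0.83 (-1.42 to -0.30). In the Myh1 class the ratios were -1.11 for Maf, -1.08 for Sox6, -1.22 for Eya1 and -0.57 for Tbx15. In the Myh2 class Eya1 had a ratio of -1.41 and Sox6 of -0.79, while the intervals of Maf and Tbx15 included 0. Maf, Sox6, Tbx15 and Eya1 were thus lower in the Myh4- and Myh1-class nuclei of the cluster than in others with the same main myosin, and Nfatc1 had intervals across 0 in both classes. Vgll2 was lower in the Myh1-class nuclei of the cluster (-1.51, -2.93 to -0.32) and in those of the Myh2 class (-1.24, -2.29 to -0.32). Nfatc2 was lower in those of the Myh4 class (-0.74, -1.54 to -0.04) and of the Myh2 class (-1.04, -2.09 to -0.09). In nuclei without a class Maf had a ratio of -2.05, Sox6 of -1.62 and Prox1 of 3.47 (1.47 to 6.59). Over the whole type I-like cluster Maf was at 137 CPM for Ctrl and 58.6 CPM for cKO, Sox6 at 2270.0 and 1066 CPM, and Prox1 at 16.5 and 46.7 CPM, with 18 Ctrl and 273 cKO nuclei of the Myh7 class among its 193 and 949.

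Among the remaining myonuclear clusters, cluster 3, led by Slc4a10 and Sorcs1, had Tbx15 at 624 CPM (Ctrl) and 440 CPM (cKO), against 518 and 344 CPM in cluster 0, and held 0 and 1 UMIs of Vgll2. Cluster 1, led by Myh2 and Alpl, had Vgll2 at 53.0 CPM for Ctrl and 79.7 CPM for cKO and Maf at 110.1 and 112 CPM. In the myotendinous junction-like cluster Nfatc2 was at 146 CPM (109 to 193) for Ctrl and 232 CPM (171 to 308) for cKO, beside 119, 99.9 and 108 CPM in clusters 0, 1 and 3 of Ctrl and 116 to 117 CPM in those of cKO. In cKO its interval overlapped those of the immune-like, satellite cell-like and neuromuscular junction-like clusters and of cluster 6, and in Ctrl it overlapped those of the type I-like cluster and of clusters 0, 1 and 3 but not that of cluster 6 (67.3 CPM, 45.4 to 96.1). In the neuromuscular junction-like cluster, with 33 and 36 nuclei, no gene of the 9 but Sox6 passed 30 UMIs in either library.

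Outside the fibers these genes have to be read beside free fiber RNA, for which Myh4, the myosin with the most UMIs in the FAP-like cluster, was taken as the measure. In the FAP-like cluster of Ctrl, Myh4 was at 42.8% of its level in myonuclei (39.3 to 46.6%), and Myh1 and Myh2 were at 45.1% and 44.2%. Sox6 was at 32.1%, Eya1 at 39.4% and Maf at 45.7% there, at or below that background within their intervals, whereas Tbx15 was at 74.2% (64.5 to 85.1%) and Nfatc1 at 99.9% (74.7 to 131%). In cKO Myh4 was at 36.9% (31.9 to 42.6%) and Tbx15 at 99.6% (77.3 to 126%), while Nfatc1 was at 59.6% (33.2 to 99.0%). Maf was at 67.1% in cKO (46.5 to 93.8%), above the interval of Myh4 but not that of Myh2 (44.1%, 33.2 to 57.6%). Sox6 was at 44.3% (39.3 to 49.7%) and Eya1 at 32.7% (17.8 to 55.0%) there. Tbx15 thus stood above the Myh4 background in FAP-like nuclei of both libraries, and Maf in those of cKO alone. In the smaller clusters the myosins gave unequal backgrounds: in Ctrl, Myh1 was at 47.2% and Myh2 at 37.6% in the endothelial-like cluster, at 43.8% and 7.76% in the satellite cell-like cluster, and at 48.8% with no UMI of Myh2 in the immune-like cluster. In the immune-like cluster, of 28 Ctrl and 16 cKO nuclei, Maf was at 211% of the myonuclear level in Ctrl (144 to 298%, 32 UMIs) beside Myh4 at 58.7%, and at 155% in cKO (66.9 to 307%, 8 UMIs) beside Myh4 at 23.4%. In the satellite cell-like cluster, of 22 Ctrl and 9 cKO nuclei, Eya1 was at 184% in Ctrl (105 to 301%, 16 UMIs) beside Myh4 at 107%. Prox1 had 8 UMIs in the endothelial-like cluster of Ctrl (854% of the myonuclear level, 329 to 1992%) beside Myh4 at 77.2%, and 4 UMIs in that of cKO (116%, 31.2 to 305%) beside Myh4 at 84.6%. It was at 398% in the FAP-like cluster of Ctrl (144 to 964%, 7 UMIs) and at 20.9% in that of cKO (1 UMI). The satellite cell-like clusters held 4 UMIs of Prox1 in Ctrl (2991%, 749 to 8806%) and 2 in cKO (1237%, 148 to 4563%).

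**Figure D4:**
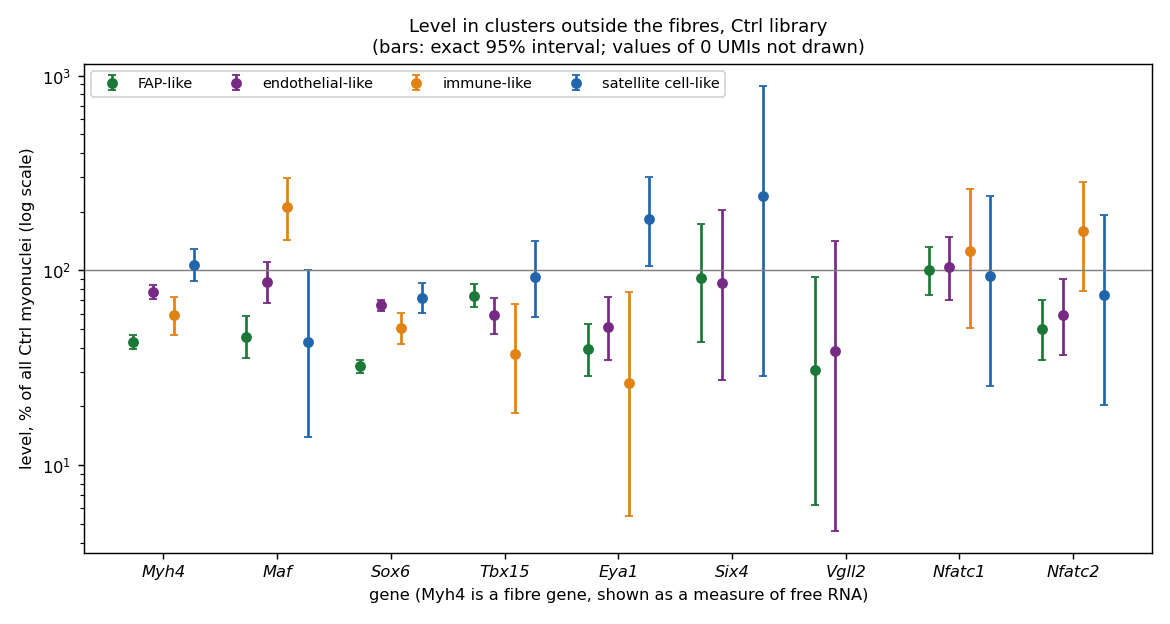
Level of Myh4 and of 8 of the genes in the FAP-like, endothelial-like, immune-like and satellite cell-like clusters of Ctrl, as a percent of the level in all Ctrl myonuclei on a log axis. Bars are exact 95% intervals, values of 0 UMIs are not drawn, and Prox1 is left out for its few UMIs in myonuclei. Myh4 stands for free fiber RNA: Tbx15 in FAP-like nuclei (74.2%) and Maf in immune-like nuclei (211%) lie above it.

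Of 17 related genes of the families of Six4, Eya1, Dach1, Maf, Sox6, Tead1 and Vgll2, 13 had enough UMIs over all myonuclei. None was past 1.5-fold higher in cKO and 5 were past it lower, beside 9.25% higher and 13.4% lower of all genes, with a median log2 ratio of -0.11 beside -0.08 for all genes. Tead4, a TEAD factor, was at 113 CPM for Ctrl and 37.5 CPM for cKO (log2 ratio -1.59, -1.80 to -1.39). Eya4, a paralog of Eya1, was at 887 and 461 CPM (-0.95), and Sox5, a paralog of Sox6, at 20.6 and 11.4 CPM (-0.85). Tead4 was lower in cKO in the Myh4 (-1.68), Myh1 (-1.08) and Myh2 (-1.30) classes. Eya4 shared the order of Maf, at 1021 CPM in the Ctrl Myh4 class, 465 CPM in the Myh1 class and 232 CPM in the Myh2 class.

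Of 17 genes of the calcineurin and NFAT pathway, 16 had enough UMIs, and 2 were past 1.5-fold higher and 2 lower, shares of the list near the 9.25% and 13.4% of all genes, with a median log2 ratio of 0.09. Myoz2, a calcineurin-binding protein of the slow-fiber Z disc, was at 53.8 CPM for Ctrl and 178 CPM for cKO (log2 ratio 1.72), and Homer2, a scaffold protein that binds NFAT factors, at 36.1 and 60.9 CPM (0.75). Myoz1, the related protein of fast fibers, was at 237 and 144 CPM (-0.73), and Rcan3, a calcineurin regulator, at 5.85 and 2.22 CPM (-1.40). Within the Myh4 class Myoz2 had a log2 ratio of 1.94 and Myoz1 of -0.26. Within the Myh2 class Myoz2 and Homer2 were lower in cKO, with ratios of -0.46 (-0.75 to -0.17) and -0.75 (-1.17 to -0.34). Of 13 other regulators of fiber type, 12 had enough UMIs, with 1 higher, 1 lower and a median of 0.04, again near the shares of all genes. Myod1, a myogenic factor, was at 9.80 CPM for Ctrl and 3.55 CPM for cKO (-1.46). Myog had a log2 ratio of 0.57 and Bhlhe40 of 0.51, both short of 1.5-fold. Bhlhe40, a repressor of the basic helix-loop-helix family, was 2.14-fold higher within the Myh4 class of cKO (26.1 and 55.8 CPM, log2 ratio 1.10, 0.76 to 1.43).

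The genes most like each member were taken over 7 points, the 4 classes of cKO and the 3 fast classes of Ctrl, by Pearson correlation of log2(CPM + 1) among 5029 genes. The points share libraries and depth, and the correlations of the genes named, from 0.960 to 0.998, describe these libraries only. For Six4, Myh2 came first, a gene whose UMIs set the classes and whose likeness is therefore no result, followed by Naca and Cacna1a. Sox6 was most like Eepd1, N4bp2l1 and Myoz1, and Maf like Phkb, the regulatory subunit of phosphorylase kinase, Eif4g3 and Tmtc1. Vgll2 was most like Ankrd52, Ppip5k1 and Mdh1, which encodes cytosolic malate dehydrogenase, and Tbx15 like 5730455P16Rik, Fam13c and Lrrc58. Prox1 was most like N6amt2, Zmym4 and Gm6483, and Eya1 like Etohi1, Wnk2 and Pter. Nfatc1 was most like Bcl2l13, Murc and Myl12a, and Nfatc2 like Fam35a, Coro7 and Wwp1.

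The positions of 5 more of the genes are given on GRCm38 from GENCODE. Maf lies at chr8:115682942-115707794 on the minus strand, Tbx15 at chr3:99240381-99354259 on the plus strand, Eya1 at chr1:14168954-14310235, Six4 at chr12:73099609-73113456 and Nfatc2 at chr2:168476410-168601657, all 3 on the minus strand. Antisense genes listed in the count tables overlap Maf (Gm15655), Prox1 (Gm28172 and Prox1os), Sox6 (Gm45025 and Sox6os) and Tbx15 (Gm43120). The counting was run with default settings, which count only reads on the sense strand of a gene.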

How the data were processed

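Nuclei of GP muscle were profiled in 1 Ctrl and 1 cKO library with a 3′ tag kit. Per the labels, the authors made the deposited counts, raw UMI counts per gene and barcode, with Cell Ranger 3.1.0 on mm10 (GRCm38) and, per the study's methods, with its default settings. The annotation release, and whether the reference listed introns as part of the genes, are not given in the sources used here. The members and all gene lists were chosen with earlier results of these data known. Barcodes with at least 100 genes, at least 500 UMIs and at most 10% mitochondrial UMIs were kept. Scrublet (scanpy 1.11.5) marked 0 doublets by its own threshold, so the 8% of nuclei with the highest scores were removed (307 in Ctrl and 313 in cKO). The libraries were integrated with Seurat 5.3.0 (sctransform 0.4.2, 3000 features, 25 principal components, resolution 0.3), and a cluster was named from a marker list of which at least 3 genes were detected.

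UMIs were summed over the nuclei of a library and class, divided by all UMIs of those nuclei and given as CPM, with exact Poisson intervals. Ratios have exact conditional intervals and shares exact binomial (Clopper-Pearson) intervals, which were tested on simulated data. A count of 0 was given the limit of 3 UMIs. With 1 library per group no test was run and no p was computed. Named genes are the 9 members, up to 4 genes per list with the largest log2 ratio over all myonuclei among those with at least 20 UMIs, and the 3 genes most like each member. Alternatives are given in the closing section. Total depth was 10410316 UMIs in Ctrl and 8446070 in cKO. Some members of the lists of related genes and other regulators are counted in their list and not reported here by name.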

Additional observations from a re-analysis of the deposited data

Results flagged for a closer look

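Maf and Eya1 had opposite signs of the cKO over Ctrl log2 ratio in different groups of myonuclei, with intervals that did not reach 0 on either side. For Maf the ratio was 0.25 in the Myh4 class, -0.80 in hybrid nuclei and -1.10 in nuclei without a class. For Eya1 it was 0.21 in the Myh4 class, -0.57 in the Myh2 class, -0.64 in hybrid nuclei and -0.69 in nuclei without a class. With 1 library per group the difference between classes was not tested. Without the type I-like cluster, which came mostly from cKO, the ratios in hybrid nuclei were -0.40 for Maf and -0.22 for Eya1, and that of Eya1 in the Myh2 class was -0.19. The ratio of Eya1 in the Myh2 class was 0.67 when classes were set from nuclei thinned to 500 UMIs.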

How the results depend on the processing

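The 86 log2 ratios were recomputed under 11 alternatives, though not each ratio under each of them. With the mixture of classes held equal only the ratios over all myonuclei were taken. With thinned classes or the 80% limit some ratios could not be taken. Of the values obtained, 765 lay within the counting interval of the reported ratio. Another sign than reported was found for 60 values, from 32 ratios. Of these, 2 were of ratios past 1.5-fold, and 16 were of ratios short of it and lay outside the counting interval. The log2 ratio of Six4 in hybrid nuclei was 0.29 without the type I-like cluster, against -0.65 (-1.80 to 0.48), and that of Vgll2 in hybrid nuclei was -0.15 with classes set from nuclei thinned to 500 UMIs, against 0.80. The number of genes past 1.5-fold in cKO over Ctrl was 1 in the Myh1 and Myh2 classes and 2 in the Myh4 class. In the Myh1 class it was 2 with Malat1 and mitochondrial genes left out, with thinned classes or with no minimum of UMIs, and 0 with a class limit of 80% of at least 5 UMIs. In the Myh2 class it was 2 with all nuclei, with high doublet scores kept or with no minimum, and 4 with thinned classes. In the Myh4 class it was 1 with thinned classes, with the 80% limit or without the type I-like cluster. Equal counts can hide different genes: Tbx15 was short of 1.5-fold in all 3 fast classes with thinned classes, and in the Myh4 and Myh1 classes without the type I-like cluster (-0.58 and -0.53), where Vgll2 was past it in the Myh1 class (0.76). The cause of these moves was not tested. Leaving out the type I-like cluster and leaving out cluster 6 were chosen after seeing the data. No ratio of the Myh7 class was taken without the type I-like cluster. Depth limits Prox1, Vgll2 and Six4 most, with 22, 122 and 137 UMIs in Ctrl myonuclei. No paired analysis was possible because each group has 1 library.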
